A study of Homo sapiens with 12 samples.

Results

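The hepatic lineage transcription factors described here were FOXA1, FOXA2, FOXA3, CEBPA, ONECUT1, ONECUT2, PROX1 and NR5A2. They were named as a set and found by Entrez gene identifier, and all 8 were present among the 23922 genes of the expression tables. The established human line H9, derived from an embryo and pluripotent, had been taken through a protocol for hepatocyte-like cells, with or without thyroid hormone. Libraries were made from total RNA, and the strand used in counting was not given in the sources used here. The 6 groups held 2 libraries each. At day 7, labelled hepatoblasts, and at day 19, labelled hepatocytes, cells had received 0.1% DMSO as control, 30 nM T3 (triiodothyronine) or 30 nM T4 (thyroxine). The labels gave neither the time of hormone addition nor whether the paired libraries came from separate cultures, so each p-value below reflects the scatter of these libraries alone, and that scatter may be technical. All groups came from the same unmodified line, and a solvent was named only for the control.

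Liver cell identity is set by a small network of transcription factors that bind one another's genes and the genes of liver function. The forkhead factors FOXA1, FOXA2 and FOXA3 bind closed chromatin at liver enhancers. CEBPA, the cut-homeodomain factors ONECUT1 and ONECUT2, the homeodomain factor PROX1 and the nuclear receptor NR5A2 act with them in the growth of hepatoblasts and in hepatocyte and bile duct differentiation.

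Total expected counts ran from 18363549 to 19306181 per library, so that 1 count was worth 0.0518 to 0.0545 CPM, the usual depth-scaled read count. Levels below are CPM scaled by TMM, a normalization of library composition, or the authors' FPKM, which is also per transcript length. Differences were tested with edgeR over 18101 genes and called at a Benjamini-Hochberg adjusted p of at most 0.05. All 8 members passed the filter on low counts. The summed level of 11 hepatic markers lay between 6070 and 7575 CPM at day 7 and between 67424 and 71391 CPM in DMSO at day 19. AFP, the fetal serum protein, stood at 34200 CPM ± 1794 (SD, n = 2) in DMSO at day 19, and ALB, the adult one, at 19.3 CPM ± 2.09 (SD, n = 2), so the cells labelled hepatocytes held far more transcript of the fetal marker.

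RefSeq promoter windows (GRCh38.p14, from 250 bases before to 50 after an annotated start) were found for 6 of the 8 members. FOXA2 and PROX1 had none. The windows of 4 members with called changes between days or treatments are shown, NR5A2 with both of its starts because its transcripts were estimated from both. Capitals mark matches on either strand to AGGTCA (the nuclear receptor half-site), TGTTTAC (forkhead), TATAAA (the core of the TATA box), ATTGAT (ONECUT), TCAAGGNCA (NR5A) or TTGCGNAA (CEBP), where N is any base. None of these motifs overlapped another in the windows shown.
FOXA1, chr14:37595200-37595499, minus strand: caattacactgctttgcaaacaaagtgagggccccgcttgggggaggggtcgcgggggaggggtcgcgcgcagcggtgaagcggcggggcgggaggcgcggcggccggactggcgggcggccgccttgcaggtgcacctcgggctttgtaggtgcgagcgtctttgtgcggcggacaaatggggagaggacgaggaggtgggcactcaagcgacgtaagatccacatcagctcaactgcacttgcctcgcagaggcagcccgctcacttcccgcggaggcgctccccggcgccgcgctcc
FOXA3, chr19:45864076-45864375, plus strand: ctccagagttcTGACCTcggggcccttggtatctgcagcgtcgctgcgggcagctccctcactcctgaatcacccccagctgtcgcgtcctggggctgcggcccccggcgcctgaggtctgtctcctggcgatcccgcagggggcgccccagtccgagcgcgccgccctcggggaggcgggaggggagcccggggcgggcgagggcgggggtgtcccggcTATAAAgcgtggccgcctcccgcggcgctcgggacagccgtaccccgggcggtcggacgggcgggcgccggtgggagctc
CEBPA, chr19:33302485-33302784, minus strand: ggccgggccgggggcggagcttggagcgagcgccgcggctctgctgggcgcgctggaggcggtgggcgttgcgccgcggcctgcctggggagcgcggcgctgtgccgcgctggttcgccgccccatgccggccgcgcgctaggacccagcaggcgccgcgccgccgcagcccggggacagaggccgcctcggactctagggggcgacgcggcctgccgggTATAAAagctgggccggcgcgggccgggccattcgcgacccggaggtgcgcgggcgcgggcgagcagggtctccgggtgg
NR5A2 first start, chr1:200027460-200027759, plus strand: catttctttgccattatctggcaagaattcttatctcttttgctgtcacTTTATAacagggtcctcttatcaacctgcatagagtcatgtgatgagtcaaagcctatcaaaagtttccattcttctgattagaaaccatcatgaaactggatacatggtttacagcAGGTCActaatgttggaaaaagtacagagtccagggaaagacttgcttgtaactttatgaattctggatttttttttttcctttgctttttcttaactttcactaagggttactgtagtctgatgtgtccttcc
NR5A2 second start, chr1:200042341-200042640, plus strand: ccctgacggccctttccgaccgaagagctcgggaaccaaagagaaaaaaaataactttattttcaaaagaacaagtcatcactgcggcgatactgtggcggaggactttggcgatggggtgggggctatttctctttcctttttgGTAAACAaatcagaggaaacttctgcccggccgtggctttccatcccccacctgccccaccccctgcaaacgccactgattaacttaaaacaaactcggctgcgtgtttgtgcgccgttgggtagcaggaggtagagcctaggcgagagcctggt

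In FOXA3 the capitals mark a half-site on the opposite strand at -239 to -234 and a TATA match at -30 to -25, counted from the start. CEBPA held a TATA match at the same place, -30 to -25. The first NR5A2 start had a half-site at -84 to -79 and a reverse TATA match at -201 to -196. The second had a reverse forkhead match at -105 to -99. No letters of the 6 motifs were found in the FOXA1, ONECUT1 or ONECUT2 windows. Of 35116 promoter windows of this length, 13.83% held the half-site, 11.53% the TATA match, 3.42% the forkhead match, 6.26% the ONECUT match, 1.18% the NR5A match and 0.891% the CEBP match. GC content was 36.7% at the first NR5A2 start and 80.7% at CEBPA, the lowest and highest of the members, against a median of 58.7% over all windows.

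**Figure D1:**
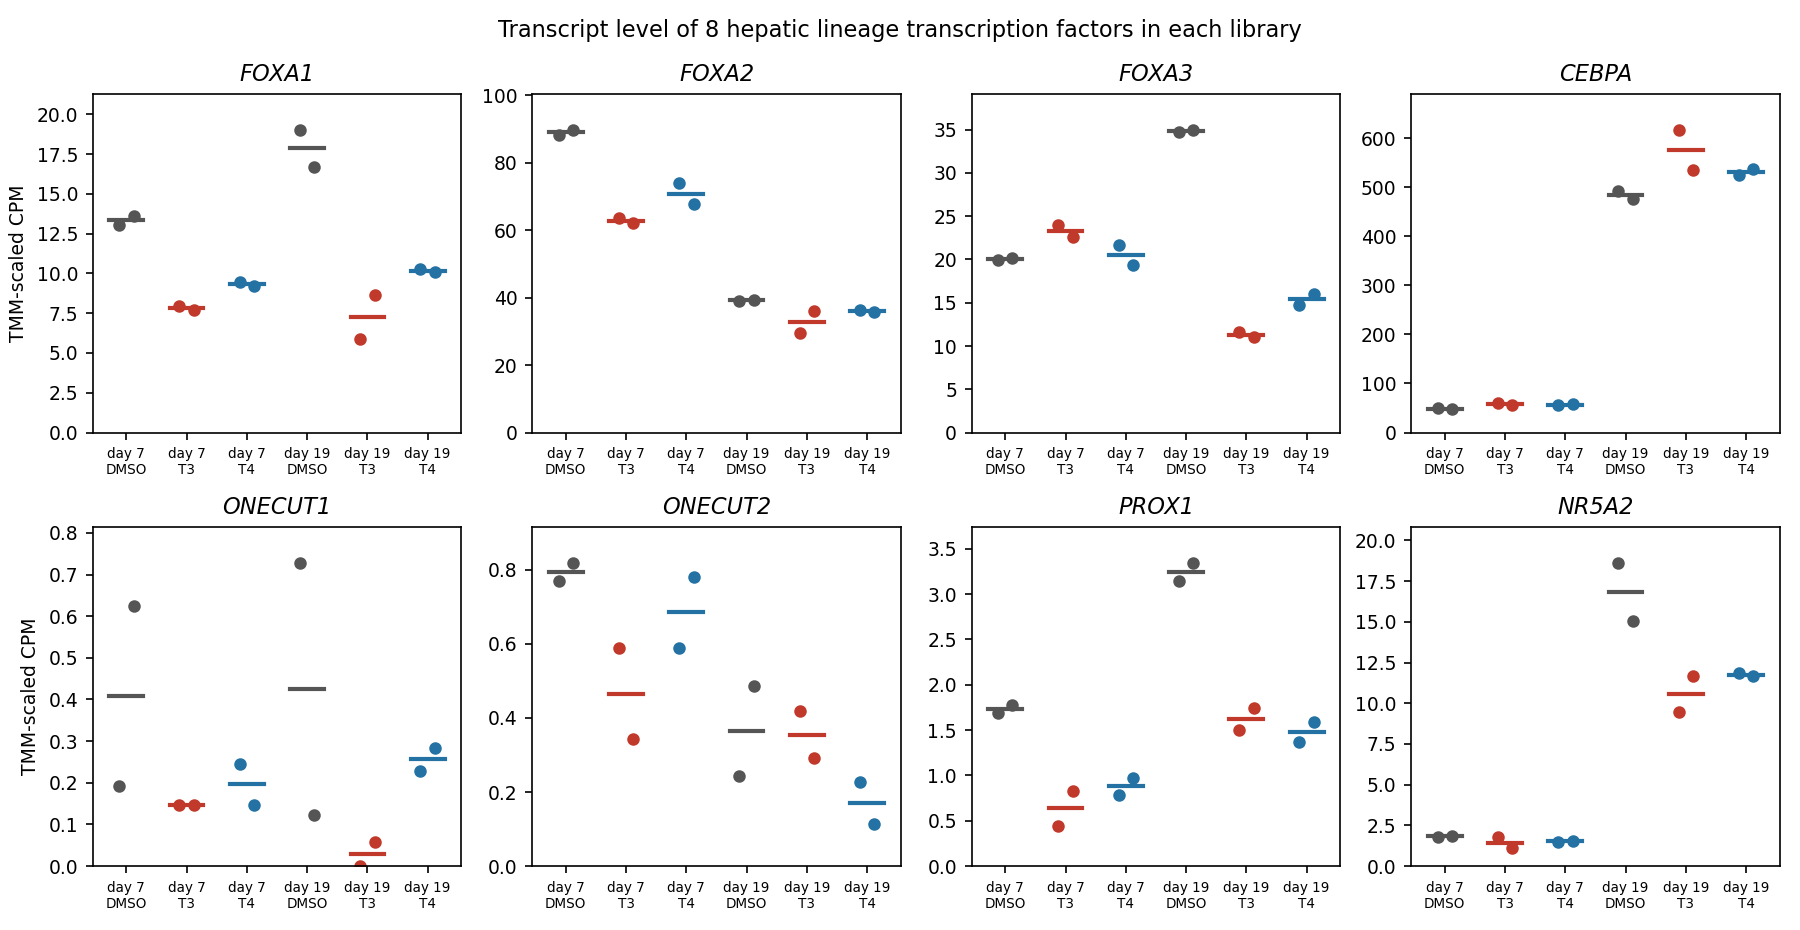
TMM-scaled CPM (linear axes starting at 0) of each of the 8 genes in the 12 libraries, by day and treatment. Points are libraries and lines are the means of 2. FOXA2 is highest at day 7, CEBPA and NR5A2 at day 19, and FOXA3 at day 19 in DMSO.

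FOXA1 was lower with both hormones on both days. FOXA1 overlaps with FOXA2 in binding and function during liver specification. At day 7 it stood at 13.0 and 13.6 CPM in DMSO, 7.94 and 7.73 CPM with T3, and 9.43 and 9.22 CPM with T4. By day 19 it stood at 19.0 and 16.7 CPM in DMSO, 5.87 and 8.67 CPM with T3, and 10.3 and 10.1 CPM with T4. The DMSO libraries were above every hormone library of their day. T3 lowered it 1.70-fold at day 7 (log2 fold change -0.77 ± 0.14 SE, edgeR adjusted p = 0.00185) and 2.45-fold at day 19 (-1.29 ± 0.14, adjusted p = 2.49e-06). T4 lowered it 1.43-fold at day 7 (-0.52 ± 0.14, adjusted p = 0.0368) and 1.76-fold at day 19 (-0.81 ± 0.14, adjusted p = 0.000212). In these bulk libraries a smaller number of cells of a type and less RNA per cell cannot be told apart. The T4 call at day 7 was kept in 4 of 13 alternatives. It was lost without any 1 of the 4 libraries compared (log2 fold change -0.55 to -0.48). It was also lost without a low-count filter (edgeR adjusted p = 0.0502), with DESeq2 (0.101) and with limma on FPKM (0.0847 to 0.153).

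FOXA2, which acts with FOXA1 at the onset of liver development from the endoderm, was the most abundant of the 3 forkhead genes at day 7. It stood there at 88.3 and 89.7 CPM in DMSO, 63.6 and 62.0 CPM with T3, and 73.8 and 67.8 CPM with T4. It was 1.42-fold lower with T3 (log2 fold change -0.50 ± 0.07 SE, edgeR adjusted p = 0.000292) and 1.26-fold lower with T4 (-0.33 ± 0.07, adjusted p = 0.0125). Both hormone groups lay wholly below DMSO. The T4 call was kept in 7 of 13 alternatives. It was lost without either DMSO library (-0.34 and -0.32), without T4 replicate 2 (-0.27) and with limma on FPKM (adjusted p from 0.0504 to 0.0808). At day 19 the level was lower in every group, at 38.9 and 39.4 CPM in DMSO, 29.6 and 36.0 CPM with T3, and 36.3 and 35.6 CPM with T4. The T3 difference of -0.26 ± 0.08 at day 19 was called (edgeR adjusted p = 0.0183). It was -0.12 without T3 replicate 1 and -0.25 without DMSO replicate 2. The call was kept in 6 of 13 alternatives. It was lost with day 19 libraries only (edgeR adjusted p = 0.0785), with DESeq2 (0.0907) and with limma on FPKM (0.122 to 0.143). The T4 difference of -0.12 ± 0.08 at day 19 was not called (edgeR adjusted p = 0.25).

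The long noncoding RNA LINC00261 lies 2355 bases from FOXA2 on chromosome 20 and showed the same order of groups at day 7. It stood at 276 CPM ± 2.25 (SD, n = 2) in DMSO, 144 ± 1.89 with T3 and 181 ± 1.39 with T4. Its log2 fold change was -0.94 ± 0.08 SE with T3 (edgeR adjusted p = 2.43e-06) and -0.61 ± 0.08 with T4 (0.000369). At day 19 it was 30.2, 28.7 and 32.9 CPM in DMSO, T3 and T4, and neither difference was called (edgeR adjusted p = 0.6 and 0.351).

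FOXA3, the forkhead factor that rises late in liver differentiation, was the only member whose hormone difference from DMSO passed the edgeR test for a change between the days. At day 7 it was 20.0 and 20.2 CPM in DMSO, 24.0 and 22.6 CPM with T3, and 21.7 and 19.4 CPM with T4. The T3 libraries were the highest there, at a log2 fold change of 0.21 ± 0.08 SE that was not called (edgeR adjusted p = 0.0902). The T4 difference was 0.03 ± 0.08 (adjusted p = 0.874). In the day 19 libraries it was 34.7 and 35.0 CPM in DMSO, 11.6 and 11.0 CPM with T3, and 14.8 and 16.0 CPM with T4. The 3 day 19 groups did not overlap. T3 lowered it 3.08-fold (-1.62 ± 0.09, edgeR adjusted p = 1.08e-09) and T4 lowered it 2.26-fold (-1.18 ± 0.08, adjusted p = 3.92e-08). The test of the difference between the days gave -1.84 ± 0.12 for T3 (edgeR adjusted p = 3.56e-08) and -1.21 ± 0.12 for T4 (3.95e-06).

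**Figure D2:**
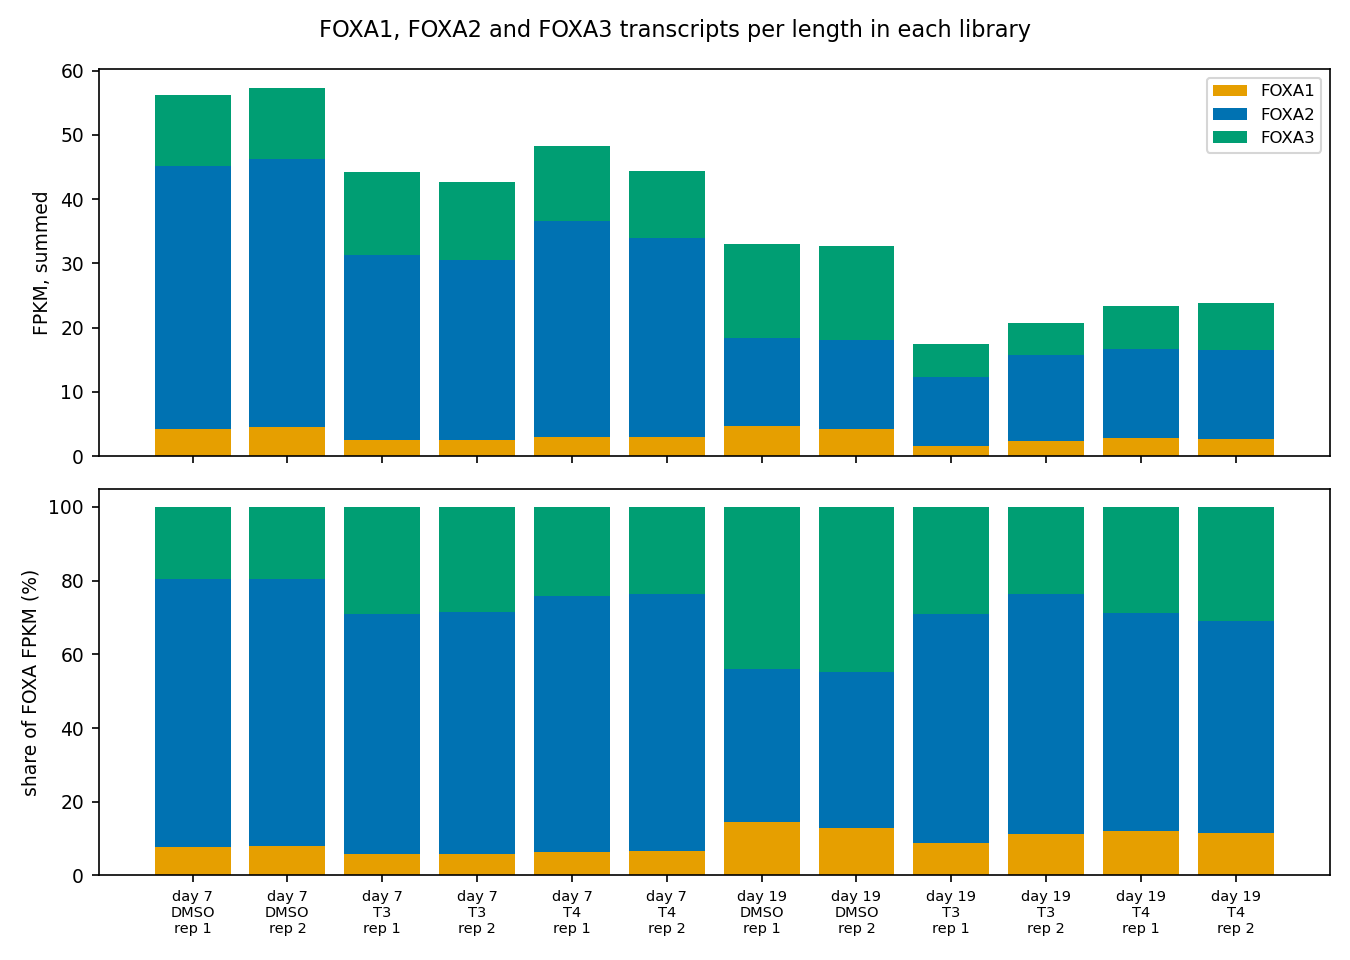
Authors' FPKM of the 3 FOXA genes stacked per library (top) and as percent of their sum (bottom). FOXA2 is the largest segment in 10 of 12 libraries and FOXA3 in both DMSO libraries of day 19.

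On the FPKM scale, which allows levels of different genes to be compared, the makeup of the forkhead pool differed by day and hormone. In DMSO at day 7 FOXA2 was 72.7% of the summed FOXA FPKM, FOXA3 19.5% and FOXA1 7.75%. In DMSO at day 19 FOXA3 was 44.4% ± 0.53 (SD, n = 2), FOXA2 42.0% ± 0.644 and FOXA1 13.6% ± 1.17. The lead of FOXA3 there was narrow and held on FPKM only. By expected counts FOXA2 was 42.03% and 43.27% in these 2 libraries and FOXA3 37.45% and 38.4%. FOXA2 was again the larger share with T3 at day 19 (63.7% ± 2.02) and with T4 (58.5% ± 1.2). FOXA3 was then 26.3% ± 3.72 with T3 and 29.8% ± 1.47 with T4. The summed FPKM was 56.8, 43.5 and 46.4 at day 7 in DMSO, T3 and T4, and 32.8, 19.1 and 23.7 at day 19. On log2(FPKM + 0.1) the median of all genes also moved from day 7 to day 19. It moved by -0.35 in DMSO, -0.299 under T3 and -0.237 under T4, so the fall of the sums between days is partly one of scale. With 2 libraries a group these shares are given as a description with no test.

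CEBPA, a leucine zipper factor that drives hepatocyte metabolic genes, was the most abundant member at day 19 on the FPKM scale, at 157 FPKM in DMSO, and was not lower with either hormone. At day 7 it was 49.4 and 47.8 CPM in DMSO, 59.9 and 57.1 CPM with T3, and 56.0 and 57.8 CPM with T4. Day 19 levels were 491.8 and 476.8 CPM in DMSO, 616.9 and 536.0 CPM with T3, and 525.0 and 536.8 CPM with T4. Every hormone library was above both DMSO libraries of its day, and the T3 and T4 groups overlapped on both days. With T3 it was 1.20-fold higher at day 7 (log2 fold change 0.27 ± 0.07 SE, edgeR adjusted p = 0.0205) and 1.19-fold higher at day 19 (0.25 ± 0.06, adjusted p = 0.00347). The T4 differences, 0.23 ± 0.07 at day 7 and 0.13 ± 0.06 at day 19, were not called (edgeR adjusted p = 0.0788 and 0.105). The day 7 call for T3 was lost without any 1 of the 4 libraries (adjusted p from 0.0601 to 0.152), whereas the day 19 call was kept in all 13 alternatives (highest adjusted p 0.0486). With limma on FPKM the T4 difference at day 19 was 0.26 and passed (adjusted p from 0.00442 to 0.00620). The T4 difference at day 7 stayed uncalled in 12 of 13 alternatives. It passed with day 7 libraries only (0.22, edgeR adjusted p = 0.00553). CEBPA-DT, a noncoding RNA 286 bases from CEBPA, was called in no hormone comparison with DMSO (edgeR adjusted p from 0.27 to 0.875). The 4 listed CEBPA transcripts had the same length of 2631 bases and equal shares of 25% each.

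Among CEBP paralogs, CEBPB, which responds to stress and cytokines, stood at 133.9 CPM ± 3.41 (SD, n = 2) in DMSO at day 19, 482.7 ± 73.7 with T3 and 357.1 ± 16.5 with T4. Its log2 fold change was 1.85 ± 0.09 SE with T3 (edgeR adjusted p = 2.25e-10) and 1.42 ± 0.09 with T4 (7.57e-09). CEBPG rose by 0.36 ± 0.06 with T3 at day 19 (edgeR adjusted p = 0.000112). CEBPD rose by 0.30 ± 0.07 with T3 (0.00289) and by 0.20 ± 0.07 with T4 (0.0441). CEBPE, ONECUT3 and NR5A1 did not pass the filter on low counts. PROX2, at 0.612 to 0.987 CPM on average in the 6 groups, was not called against DMSO on either day.

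ONECUT1 and ONECUT2, cut-homeodomain factors of liver and bile duct formation, were close to the limit of detection. ONECUT1 had 4 and 13 counts in DMSO at day 7, 3 and 3 with T3, and 5 and 3 with T4. At day 19 it had 12 and 2 counts in DMSO, 0 and 1 with T3, and 4 and 5 with T4. At day 19 the T4 libraries lay between the DMSO replicates, and both T3 libraries lay below them. ONECUT1 passed the low-count filter through DMSO libraries only, those with 13 and 12 counts. Every other library had at most 5. The filter thus kept ONECUT1 for the control libraries in which it was high, which limits any call of lower with hormone. Summed over the group, 1 count with T3 against 14 in DMSO at day 19 gave a ratio per total count of 0.0733 (exact 95% interval 0.00173 to 0.482, counting error only). The edgeR call for this difference (adjusted p = 0.026) was kept in 7 of 13 alternatives. It was lost without DMSO replicate 1 (log2 fold change -1.83) and without T3 replicate 1 (-2.73). It was also lost with DESeq2 (adjusted p = 0.0744) and with limma on FPKM (0.159 to 0.241).

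ONECUT2 had 16 and 17 counts in DMSO at day 7, 12 and 7 with T3, and 12 and 16 with T4. Its day 19 counts were 4 and 8 in DMSO, 7 and 5 with T3, and 4 and 2 with T4. No hormone difference from DMSO was called for it (edgeR adjusted p from 0.22 to 0.968). Its listed transcript is 16142 bases long, against 2118 for the longer ONECUT1 form, so ONECUT1 led in 11 of 12 libraries by FPKM and in 2 of 12 by counts, with 1 tie at 4 counts each.

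PROX1, a homeodomain factor required for hepatoblasts to spread and expand, was low and was lower still with hormone. At day 7 it was 1.69 and 1.78 CPM in DMSO (35 and 37 counts), 0.441 and 0.832 CPM with T3 (9 and 17 counts), and 0.786 and 0.975 CPM with T4 (16 and 20 counts). The day 19 values were 3.15 and 3.34 CPM in DMSO, 1.50 and 1.75 CPM with T3, and 1.37 and 1.59 CPM with T4. DMSO was above all hormone libraries on each day, and T3 and T4 overlapped. T3 lowered it at day 7 (log2 fold change -1.44 ± 0.31 SE, edgeR adjusted p = 0.0065) and at day 19 (-0.997 ± 0.264, adjusted p = 0.00532). T4 lowered it at day 19 (-1.13 ± 0.27, edgeR adjusted p = 0.00315). The T4 difference of -0.97 ± 0.30 at day 7 was not called (adjusted p = 0.0714). The T3 call at day 7 was lost without T3 replicate 1 (-1.05). It was also lost with the filtered limma settings on log2(FPKM + 0.1) (adjusted p = 0.0542) and log2(FPKM + 1) (0.0594). The T3 call at day 19 was lost with DESeq2 (adjusted p = 0.0631). PROX1-AS1 overlaps PROX1, and its group means were at most 0.212 CPM.

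NR5A2, the nuclear receptor LRH-1 that acts on bile acid and cholesterol genes, was low at day 7 and higher at day 19, and was lower with both hormones at day 19. At day 7 it was 1.78 and 1.88 CPM in DMSO, 1.76 and 1.13 CPM with T3, and 1.47 and 1.56 CPM with T4, and no hormone difference was called (edgeR adjusted p = 0.425 and 0.614). Day 19 levels were higher, at 18.6 and 15.1 CPM in DMSO, 9.46 and 11.7 CPM with T3, and 11.9 and 11.7 CPM with T4. Both DMSO libraries were the highest. T3 lowered it 1.59-fold (log2 fold change -0.67 ± 0.15 SE, edgeR adjusted p = 0.00158) and T4 lowered it 1.43-fold (-0.52 ± 0.15, adjusted p = 0.0107). The T4 call was kept in 8 of 13 alternatives. It was lost without DMSO replicate 1 (-0.36), with DESeq2 (adjusted p = 0.0586) and with limma on FPKM (0.0617 to 0.198).

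The authors' estimates also divided NR5A2 among 3 transcripts. A form of 4956 bases and a form of 5094 bases begin near the first start shown above, and a form of 4787 bases begins near the second. In DMSO at day 19 the 4956-base form was 87.2% and 100% of the gene's FPKM, and the 5094-base form was listed at 0 in both libraries. With T4 the 5094-base form was 14.0% and 30.0%, and with T3 it was 82.4% and 52.4%. The 3 groups did not overlap in that share, but replicates differed within a group. With T3 the 4956-base form was 0% and 47.6%, and the 4787-base form was 17.6% and 0%. At day 7, where 23 to 39 counts were divided, the 5094-base form was 100% and 0% in the DMSO replicates. It was 92.1% and 0% with T3, and 0% and 100% with T4, so replicates of a group did not give the same form. The long forms differ by 138 bases, and the division of reads they share is an estimate of the authors' software. The shares carry no test.

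**Figure D3:**
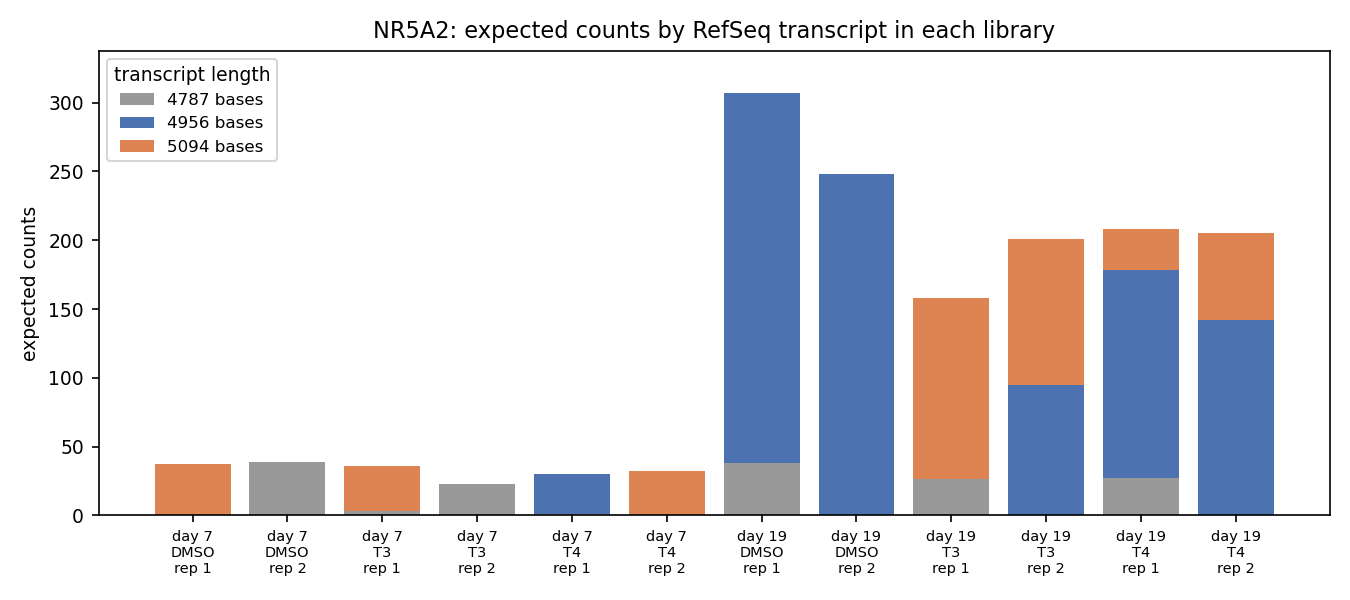
Expected counts of the 3 NR5A2 transcripts, named by length, stacked for each library. The 4956-base form makes up most of the day 19 DMSO bars, and the 5094-base form appears in the hormone bars of that day.

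**Figure D4:**
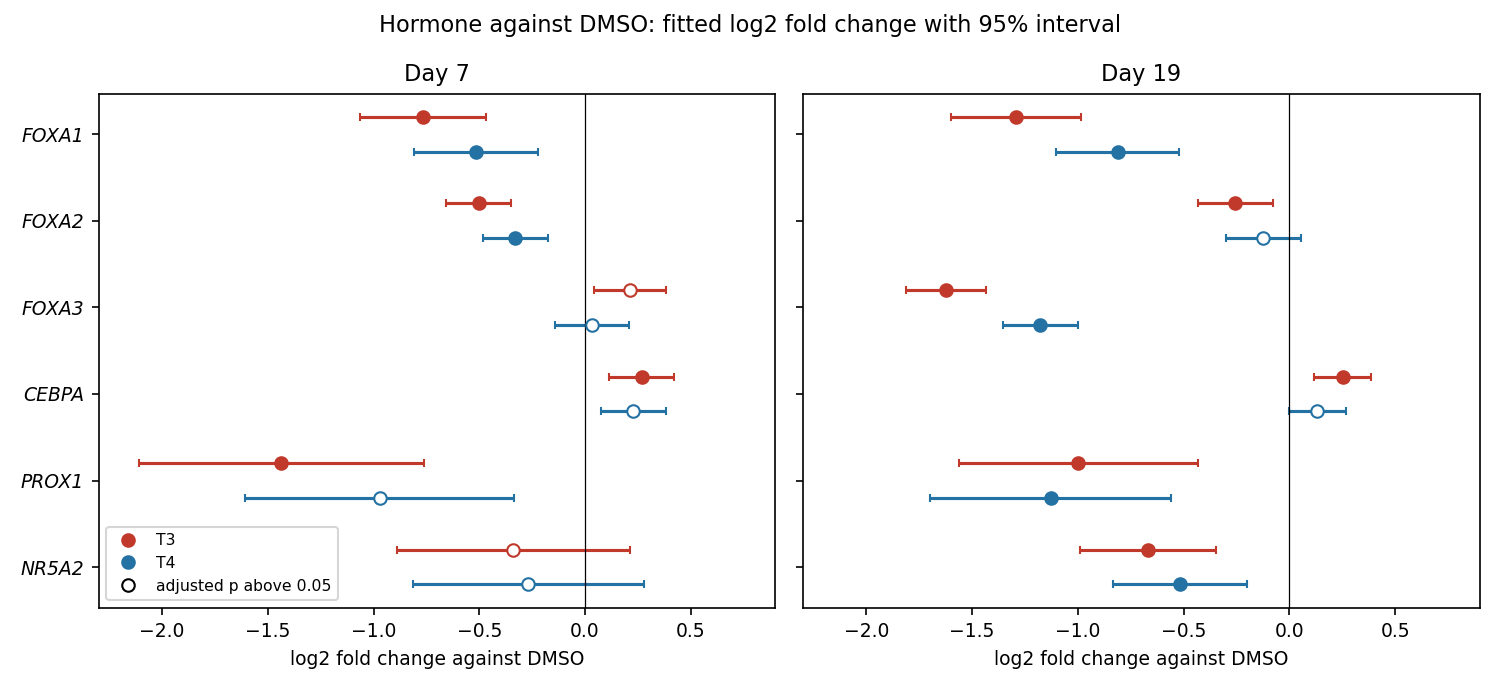
Fitted log2 fold change of T3 and T4 against DMSO at day 7 (left) and day 19 (right) with 95% intervals from edgeR, without ONECUT1 and ONECUT2. Filled points passed an adjusted p of 0.05. FOXA3 lies at or above 0 at day 7 and at -1.62 and -1.18 at day 19.

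Read against all genes, the count of members called with T3 at day 7 was 4 of 8 (FOXA1, FOXA2 and PROX1 lower, CEBPA higher), where 16% of all tested genes were called, 9.43% higher and 6.54% lower. With T4 at day 7 it was 2 of 8, both lower, where 6.42% of all genes were called, 3.9% higher and 2.52% lower. With T3 at day 19 it was 7 of 8, 6 of them lower, where 52.3% of all genes were called, 25.1% higher and 27.3% lower. With T4 at day 19 it was 4 of 8, all lower, where 42.8% were called, 21% higher and 21.9% lower. The median log2 fold change of the members was -0.63 with T3 and -0.30 with T4 at day 7, and -0.83 and -0.76 at day 19, against 0.0077, 0.0068, -0.027 and 0.000463 over all genes. These medians include the ONECUT genes, which were close to the limit of detection. Among the middle values were ONECUT2 with T3 at day 7 (-0.76, edgeR adjusted p = 0.276) and ONECUT1 with T4 at day 19 (-0.71, 0.512). The 7 members called with T3 at day 19 included ONECUT1, which passed the low-count filter through DMSO libraries only. DESeq2 called 4 members with T3 at day 19. The T3 count at day 7 was 2 without T3 replicate 1, and the T4 count at day 7 was 0 or 1 when any 1 library was left out. All hormone comparisons of a day share their DMSO libraries.

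T4 and T3 differ by 1 iodine atom and were compared at the same 30 nM dose and on the same day. At day 7 none of the 8 members was called between them by edgeR, where 0.365% of all genes were called, 0.0387% higher with T4 and 0.326% lower. DESeq2 also called 0, and 2 members had an unadjusted p under 0.05. The 95% intervals of T4 minus T3 ran from -0.06 to 0.56 on the log2 scale for FOXA1, from 0.02 to 0.33 for FOXA2, from -0.35 to -0.01 for FOXA3 and from -0.28 to 1.21 for PROX1. At day 19, 2 of 8 were called, both higher with T4, where 15.7% of all genes were called, 7.42% higher and 8.31% lower. FOXA3 was 1.36-fold higher with T4 than with T3 (log2 fold change 0.45 ± 0.09 SE, edgeR adjusted p = 0.0053), and without T4 replicate 2 this missed the threshold (0.0545). FOXA1 was 1.40-fold higher (0.48 ± 0.15, edgeR adjusted p = 0.0442), and this call was lost in 11 of 13 alternatives. Among them were the edgeR fits with replicate number as a block (0.0522) and with day 19 libraries only (0.156). The difference was 0.23 without T3 replicate 1. Without T3 replicate 2 the day 19 count was 4, and without T4 replicate 2 it was 0. Over the 8 genes and 2 days 16 such differences were examined, each adjusted over all genes. For CEBPA (-0.25 to 0.01), NR5A2 (-0.18 to 0.48) and PROX1 (-0.75 to 0.49) the day 19 intervals included 0, which does not show that the hormones act alike.

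From day 7 to day 19 the members moved in both directions. In DMSO 6 of 8 were called, 5 higher and 1 lower, where 72.4% of all genes were called, 37.6% higher and 34.9% lower. CEBPA was 9.97-fold higher (log2 fold change 3.32 ± 0.07 SE, edgeR adjusted p = 3.02e-14) and NR5A2 9.17-fold higher (3.20 ± 0.19, adjusted p = 8.28e-10). FOXA2 was 2.27-fold lower (-1.18 ± 0.08, adjusted p = 2.72e-09). FOXA3 was 1.74-fold higher (0.80 ± 0.08, adjusted p = 3.39e-07) and PROX1 1.87-fold higher (0.90 ± 0.25, adjusted p = 0.0052). The FOXA3 rise was smaller on FPKM, from 11.08 at day 7 to 14.57 at day 19. Over 12 alternatives its log2 fold change ran from 0.37 to 0.80. The PROX1 call was lost in 4 of 12 alternatives, with DESeq2 (0.91, adjusted p = 0.0503) and with the 3 limma settings on FPKM (0.12 to 0.40, adjusted p from 0.066 to 0.147). FOXA1 was higher by 0.42 ± 0.13 (adjusted p = 0.00926), but by 0.02 with limma on log2(FPKM + 0.1) (adjusted p = 0.939), a scale on which the median of all genes moved by -0.35. That call was also lost without DMSO replicate 1 of day 7 (0.0573) and without DMSO replicate 1 of day 19 (0.0803).

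The same interval of culture was then read under each hormone. Under T3, 5 of 8 were called, 3 higher and 2 lower, where 73.1% of all genes were called, 35.2% higher and 37.9% lower. Under T4, 6 of 8 were called, 3 higher and 3 lower, where 71.9% were called, 35.5% higher and 36.4% lower. CEBPA rose by 3.30 ± 0.07 under T3 and 3.22 ± 0.07 under T4, and NR5A2 by 2.87 ± 0.20 and 2.95 ± 0.20. FOXA3 turned from higher in DMSO to lower, at -1.04 ± 0.09 under T3 and -0.41 ± 0.09 under T4 (edgeR adjusted p = 6.04e-08 and 0.000515). FOXA2 fell by 0.94 under T3 and by 0.98 under T4 on the log2 scale. PROX1 rose by 1.34 ± 0.33 under T3 (edgeR adjusted p = 0.0018) and by 0.74 ± 0.31 under T4 (0.0434), the latter lost in 8 of 12 alternatives, among them without any 1 of the 4 libraries compared (0.0625 to 0.187). ONECUT2, with 28 counts at day 7 and 6 at day 19 under T4, had a ratio of 0.21 per total count (exact 95% interval 0.0712 to 0.518). It is among the 3 called lower under T4. No day 19 library had more than 8 counts of ONECUT2, so it passed the low-count filter through day 7 libraries only. This limits a call of lower at day 19 for ONECUT2. Its edgeR call (adjusted p = 0.00644) was lost without T4 replicate 2 of day 19 (0.0592) and with DESeq2 (0.0521). FOXA1 did not pass under T3 or T4 (edgeR adjusted p = 0.55 and 0.45).

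**Figure D5:**
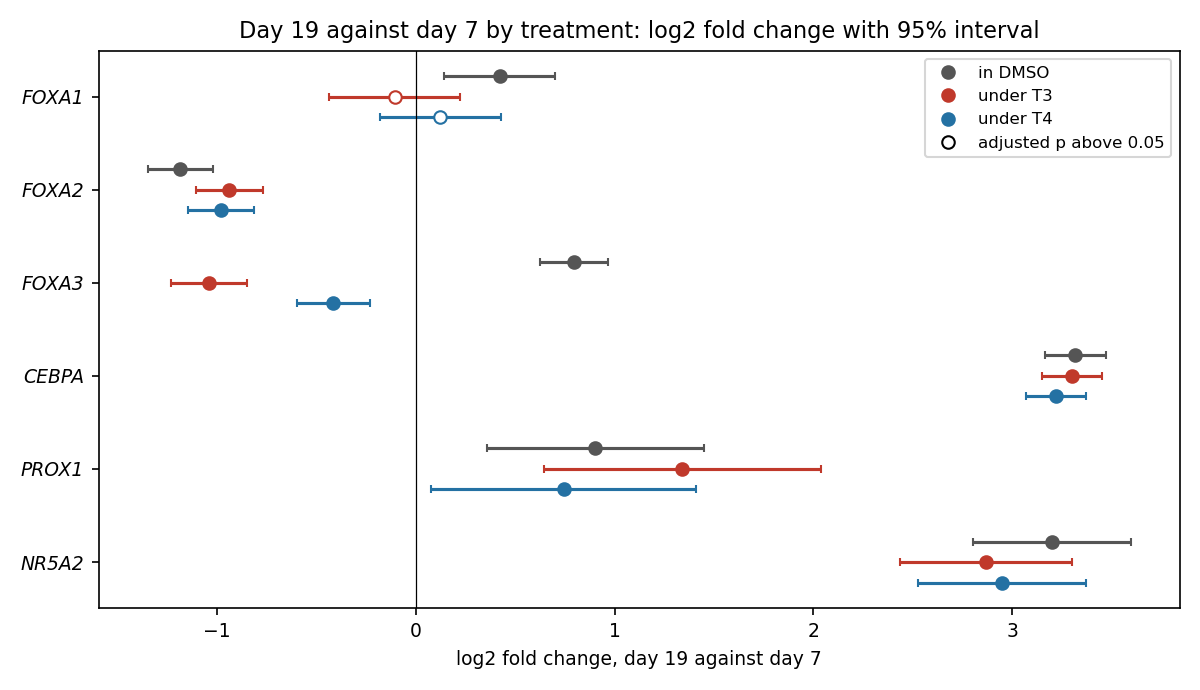
Fitted log2 fold change from day 7 to day 19 within DMSO, T3 and T4 with 95% intervals from edgeR, without ONECUT1 and ONECUT2. Filled points passed an adjusted p of 0.05. CEBPA and NR5A2 lie near 3 in all treatments, and FOXA3 is at 0.80 in DMSO and below 0 with either hormone.

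The difference of the hormone effect between days was called for 1 member with each hormone, FOXA3 both times. For T3 38% of all genes were called, 17.1% higher and 20.9% lower, and for T4 27.7% were called, 12.4% higher and 15.3% lower. For FOXA1 the T3 difference between days was -0.53 ± 0.20 SE (edgeR adjusted p = 0.0522). It passed without DMSO replicate 2 of day 19 (-0.62, 0.0371) and without T3 replicate 2 of day 19 (-0.84, 0.00184). For FOXA2 it was 0.25 ± 0.11 (adjusted p = 0.0941) and passed without T3 replicate 1 of day 19 (0.38, 0.00726).

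The other factors of the hepatic network were read from a list of 24, of which 23 were tested. With T3 at day 7, 1 was higher and 9 were lower (9.43% and 6.54% of all genes), with a median log2 fold change of -0.33. GATA4, an endoderm factor that works with FOXA proteins, fell by 0.62 ± 0.07 SE on the log2 scale (edgeR adjusted p = 5.61e-05). TBX3 (-0.61), HNF4A (-0.52) and GATA6 (-0.47) were lower too. With T4 at day 7, 0 were higher and 7 lower (3.9% and 2.52% of all genes), among them TBX3 (-0.54), GATA4 (-0.41), GATA6 (-0.37) and NR2F2 (-0.59). With T3 at day 19, 5 were higher and 12 lower, where 25.1% of all genes were higher and 27.3% lower. With T4 at day 19, 6 were higher and 11 lower, where the shares over all genes were 21% and 21.9%. HNF4A, the nuclear receptor at the centre of the hepatocyte network, was 233 CPM ± 11.9 (SD, n = 2) in DMSO at day 19, 60.0 ± 8.71 with T3 and 86.9 ± 9.86 with T4. PPARA, a receptor of fatty acid oxidation genes, fell by 1.75 ± 0.09 with T3 and fell by 1.63 ± 0.09 with T4 on the log2 scale. TBX3, which promotes the growth of hepatoblasts, was lower with T3 at day 7 and higher at day 19, by 2.05 ± 0.10 (edgeR adjusted p = 2.36e-10). In DMSO 17 were higher and 5 lower at day 19 than at day 7 (37.6% and 34.9% of all genes), CEBPD (4.16) and CREB3L3 (3.67) with the smallest p.

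Known target genes of these factors were read from a list of 24, of which 18 were tested. At day 7, 5 were lower with T3 and 3 with T4 (6.54% and 2.52% of all genes), and 0 were higher with either. TTR, the thyroid hormone carrier of plasma and a FOXA target, fell by 0.76 ± 0.12 SE with T3 (edgeR adjusted p = 0.000491) and by 0.54 ± 0.11 with T4 (0.0119). SERPINA1, a protease inhibitor made by hepatocytes, fell by 0.66 ± 0.13 with T3 (0.00257). At day 19, 15 were lower with each hormone and 0 higher, with a median log2 fold change of -3.15 with T3 and -2.23 with T4. Of all genes 27.3% were lower with T3 and 21.9% with T4, and their medians were -0.027 and 0.000463. AFP fell by 6.00 ± 0.16 on the log2 scale with T3 and fell by 4.20 ± 0.15 with T4. APOA1, the main protein of high density lipoprotein, fell by 4.18 ± 0.10 with T3 and fell by 2.55 ± 0.09 with T4. CEBPA was higher with T3 in the same day 19 libraries. In DMSO 16 of the 18 were higher at day 19 than at day 7 and 0 lower, where 37.6% and 34.9% of all genes were, among them SCARB1, a lipoprotein receptor and NR5A2 target (3.58 ± 0.10, edgeR adjusted p = 1.97e-13).

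Markers of cell types also differed between the groups, some lists lower and some higher with hormone. The 11 hepatic markers summed to 12515 to 12670 CPM with T3 and 15292 to 15424 CPM with T4 at day 19, below the DMSO range given above. With each hormone 9 of the 11 were called lower and 2 higher. The most abundant genes weigh most in such a sum. AFP, ALB, APOA1, APOB, TTR, SERPINA1, FGB and TF are also on the target list, so the 2 lists are not separate. The 9 mesenchymal markers summed to 6239 to 6502 CPM in DMSO, 2241 to 3091 CPM with T3 and 3202 to 3636 CPM with T4. Of these 7 were called lower with T3 and 6 with T4, and 1 was called higher with each. The 9 intestinal markers, of an organ where several of these factors are also expressed, summed to 2056 to 2211 CPM, 422 to 500 CPM and 808 to 1028 CPM in the same order, with MUC2 at 0 in DMSO and with T4. Of the 8 intestinal markers tested, 7 were called lower and 1 higher with each hormone. The summed level of 6 bile duct markers was 2463 to 2558 CPM in DMSO, 3580 to 3627 CPM with T3 and 3375 to 3697 CPM with T4. With each hormone 2 of the 6 were called higher (SPP1 and KRT7) and 2 lower (CFTR and EPCAM). The 7 neural markers summed to 86.3 to 89.6 CPM, 257 to 292 CPM and 208 to 229 CPM, and TUBB3 and STMN2 were called higher with each hormone. The 5 cardiac markers summed to 114 to 125 CPM in DMSO, 52.0 to 83.9 CPM with T3 and 79.1 to 86.9 CPM with T4. Of 4 tested, 2 were called lower with T3 and 1 with T4, and 1 higher with each. The 8 endothelial markers summed to 194 to 197 CPM, 163 to 223 CPM and 154 to 194 CPM at day 19. Of 7 tested, 4 were called lower with T3 and 2 with T4 at day 19, and 1 higher with each. At day 7 the 7 pluripotency markers summed to 1593 to 1615 CPM in DMSO, 2867 to 2896 CPM with T3 and 2390 to 2417 CPM with T4. Of the endothelial markers, 4 of 7 tested were called lower with each hormone at day 7 (PECAM1, CDH5, KDR and TEK). The 9 pancreatic markers measured summed to at most 28.6 CPM in any library. The part of these cell type markers in the member results was not tested.

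Genes with the most similar pattern were named by Pearson correlation of log2(CPM + 1) over the 12 libraries, among 15350 genes with a mean of at least 1 CPM. The libraries share 2 days and 3 treatments, so that high values are common and are given as a description. The closest to FOXA1 were KCTD12 (0.97), CNN3 and PCBD1. RFX6 (0.99), CDH2 and NRBP1 were closest to FOXA2, and SARDH (0.98), TRIM32 and CIB2 to FOXA3. CEBPA was closest to LRATD1, EPS8L2 and ALAS1, the first enzyme of heme synthesis, and NR5A2 to UBL3, UNC93A and ADAMTSL5. PROX1 was closest to MAP3K13 (0.97), B4GALT1 and OCLN. ONECUT1 (DCAF5, RNF180, SLC2A13) and ONECUT2 (CCDC142, ST8SIA6, DRC11) rest on too few counts to read.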

How the data were processed

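RNA libraries of 12 samples were sequenced by the authors. Per the submitters' processing notes, HISAT, Bowtie2, RSEM and the hg38 build were used; versions, filters and counting strand were not given in the sources used here. Per the file headers, each deposited table lists transcripts with a length, an expected count (the RSEM estimate of reads per transcript) and an FPKM made by the authors. Expected counts and FPKM were summed per Entrez gene, and the summed expected counts were rounded to whole numbers. Symbols came from RefSeq for 23801 of 23922 genes.

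edgeR 4.0.16 (R 4.3.3) fitted all 12 libraries with a mean per group, TMM and filterByExpr, without a replicate block, and 18101 genes were tested with the quasi-likelihood test and Benjamini-Hochberg adjustment. Intervals are 95%. Counting intervals cover counting error only. The fit was checked on simulated data. Members and lists were chosen with earlier results of these data known. Named were all members, up to 4 genes of the hepatic factor and target lists with the smallest p per comparison, the paralogs and noncoding neighbours, and the 3 genes most correlated with each member; ALB was named after its values were seen. Alternatives were DESeq2 1.42.0, its size factors, no filter, a replicate block, libraries of 1 day, removal of the 10 most abundant genes, limma 3.58.1 on log2 FPKM, and each library left out. Same-numbered libraries did not deviate together: the correlation of deviations passed 0.1 in 1 of 15 pairs of groups, so the numbers were not taken as pairs. Replicates differed by more than sampling noise, and more so at day 19. Chi-square per gene was 1.59 to 2.07 in the day 7 groups and 4.80 to 8.27 in the day 19 groups. The main fit shared 1 estimate of the spread per gene over both days.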

Additional observations from a re-analysis of the deposited data

Results flagged for a closer look

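The effect of T3 on FOXA3 differed between day 7 and day 19 by -1.84 on the log2 scale, and the effect of T4 by -1.21, each by a test of the difference itself (edgeR adjusted p = 3.56e-08 and 3.95e-06). Both passed in all 16 alternatives, over which the T3 value ran from -1.88 to -1.54 and the T4 value from -1.29 to -0.96. FOXA3 was higher in both T3 libraries than in DMSO at day 7 and lower in both at day 19, while the T4 libraries of day 7 lay on either side of DMSO.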

How the results depend on the processing

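Members and comparisons were recomputed under each alternative that gives a value for them. ONECUT2 had none under the 2 limma settings with a filter, which it did not pass, and libraries of 1 day give no comparison between days. Of the log2 fold changes, 362 of those with 1 library left out kept direction and side of the threshold, 28 lost a call, 7 gained one and 19 changed sign. For the other alternatives the numbers were 657, 46, 6 and 21. Every value that changed sign had missed the threshold in both settings.

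Counts of members called with a library left out ran from 2 to 3 (T3, day 7), 0 to 1 (T4, day 7), 0 to 0 (T4 against T3, day 7), 5 to 7 (T3, day 19), 3 to 4 (T4, day 19), 0 to 4 (T4 against T3, day 19), 5 to 7, 5 to 6 and 4 to 5 (day 19 against day 7 in DMSO, T3 and T4), 1 to 2 (T3 effect between days) and 1 to 1 (T4 effect). The lowest T3 count at day 7, 2, came without T3 replicate 1. For T4 at day 7 the count was 1 without a filter and with DESeq2, and 0 in each of the 3 limma settings. For T3 at day 19 DESeq2 gave 4. For T4 against T3 at day 19 the count was 1 with DESeq2 size factors, no filter, the replicate block, libraries of 1 day, DESeq2 and the 3 limma settings. For the T3 effect between days it was 2 with DESeq2 size factors and with limma on log2(FPKM + 1). ONECUT1 led its family in 2 libraries by expected counts and in 11 by FPKM.

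The replicate block changed 1 call: the FOXA1 difference between T4 and T3 at day 19 was 0.48 with an adjusted p of 0.0522. The numbers were not taken as pairs, and this call was kept in 2 of 13 alternatives.

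Values that changed sign with DESeq2 size factors or DESeq2 were ONECUT2 with T3 at day 19 (0.00627 and 0.00763) and the CEBPA T3 effect between days (0.0317 and 0.0316). With limma on log2(FPKM + 0.1), log2(FPKM + 1) and without a filter they were FOXA2 with T4 at day 19 (0.00675, 0.00634 and 0.00675), ONECUT1 from day 7 to day 19 in DMSO (-0.342, -0.077 and -0.342), FOXA1 from day 7 to day 19 under T4 (-0.115, -0.0888 and -0.115), and CEBPA between days for T3 (0.0958, 0.103 and 0.0958) and T4 (0.0623, 0.0687 and 0.0623). ONECUT2 with T3 at day 19 was 0.00503 with limma without a filter, and the PROX1 T3 effect between days was -0.00963 with limma on log2(FPKM + 1).

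With 1 library left out, values spanning 0 ran from -0.0481 to 0.111 (FOXA3, T4 at day 7), -1.64 to 0.0232 (ONECUT1, T4 at day 7), -0.00548 to 0.717 (ONECUT1, T4 against T3 at day 7), -0.217 to 0.429 (NR5A2, T4 against T3 at day 7), -0.449 to 0.536 (ONECUT2, T3 at day 19), -1.48 to 1.04 (ONECUT1, T4 at day 19), -1.70 to 1.11 (ONECUT1, between days in DMSO), -0.417 to 0.146 (FOXA1, between days under T3) and -0.721 to 0.0481 (ONECUT2, the same). For effects between days they ran from -0.121 to 0.0815 (CEBPA, T3), -0.617 to 0.0287 (NR5A2, T3), -0.736 to 2.08 (ONECUT1, T4) and -0.304 to 0.00488 (PROX1, T4). The cause was not tested. ONECUT1 and ONECUT2 had 0 to 17 counts a library.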
